A study of Mus musculus with 17 samples.

Results

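The 95 genes described here are transcripts that were much lower in oocytes of 48-week-old mice than in oocytes of 4-week-old mice. They were selected on measured values. Levels are given in CPM, a gene's read count scaled so that the reads assigned to genes have the same total in every library. In all 95 the lower of the 2 young libraries, plus 1 CPM, was at least 4 times the higher of the 2 aged libraries, plus 1 CPM. Of the 24491 gene symbols in the files, 100 met that fold. Symbols starting with Kcn and 4 named genes were set aside, which removed 5 of the 100. Both young libraries held at least 3 CPM of 8168 genes, and the 95 made up 1.16% of these.

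The study used wild-type CD1 mice, an outbred stock, and asked what a mother's age, and treatment with the mTOR inhibitor rapamycin, do to oocytes and to the brain of the next generation. Oocytes arrested in the second meiotic division, about 10 in a library, came from 48-week-old females that had been given intraperitoneal rapamycin, 2 mg/kg, over 40 weeks beginning at week 8 (n = 3 libraries), from untreated 48-week-old females (n = 2) and from untreated 4-week-old females (n = 2). Hippocampus came from adult daughters aged 40 to 44 weeks, born to rapamycin-treated aged mothers (n = 3), aged mothers (n = 3) or young mothers (n = 4). The mothers at 48 weeks received 10 IU of each ovulation hormone and those at 4 weeks 5 IU, so age and hormone dose cannot be told apart. All oocyte donors were given pregnant mare serum gonadotropin and human chorionic gonadotrophin, and cumulus cells were stripped with hyaluronidase. The labels do not tie libraries of one group to separate animals, and p-values therefore reflect library-to-library spread alone, part of which may be technical.

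Transcription stops in a mouse oocyte as it completes growth, and the mature egg then lives on stored messenger RNA. Maturation, fertilization and the first cleavage draw on that store, and stored messages are held back, translated or degraded through their tails and terminal sequences. A gene that is low in the mature egg may have been transcribed less during growth or degraded later, and counts of one stage do not separate these. In pools of about 10 oocytes, fewer oocytes holding a transcript and less of it in each oocyte cannot be told apart either.

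Oocyte libraries held 3912163 to 8334873 reads in genes and hippocampus libraries 16434398 to 20220617. The library rapamycin 1 stood apart: across the 8168 genes Pearson's r of log2(CPM + 1) was 0.729 to 0.786 between it and the rest, and 0.878 to 0.98 among the other 6. Gdf9, a growth factor made by the oocyte, was at 256 CPM there and at 5218 to 8756 CPM in the other 6. A list of 28 oocyte genes summed to 53283 and 55740 CPM in rapamycin 2 and 3 and to 25519 CPM in rapamycin 1. It summed to 57068 and 57069 CPM in aged oocytes and to 58870 and 60795 CPM in young oocytes. Counts and medians over the 95 that use the rapamycin group are therefore given with and without rapamycin 1. The granulosa cell markers Fshr and Amh were at or below 0.443 CPM in every library. Cyp19a1, the granulosa aromatase, was at 9.34 to 37.6 CPM in rapamycin, at 43.5 CPM or more in both aged and at 81.8 and 78.5 CPM in young libraries. Inha, an inhibin subunit, was at 65.4 CPM in rapamycin 1 and at most 4.08 CPM in the other 6. The whole cumulus and granulosa list of 25 genes, of which 10 had no count in aged oocytes and 4 none in young oocytes, summed to 201 to 278 CPM in rapamycin, 107 to 179 CPM in aged and 179 to 266 CPM in young libraries. Its part in the results was not tested.

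**Figure D1:**
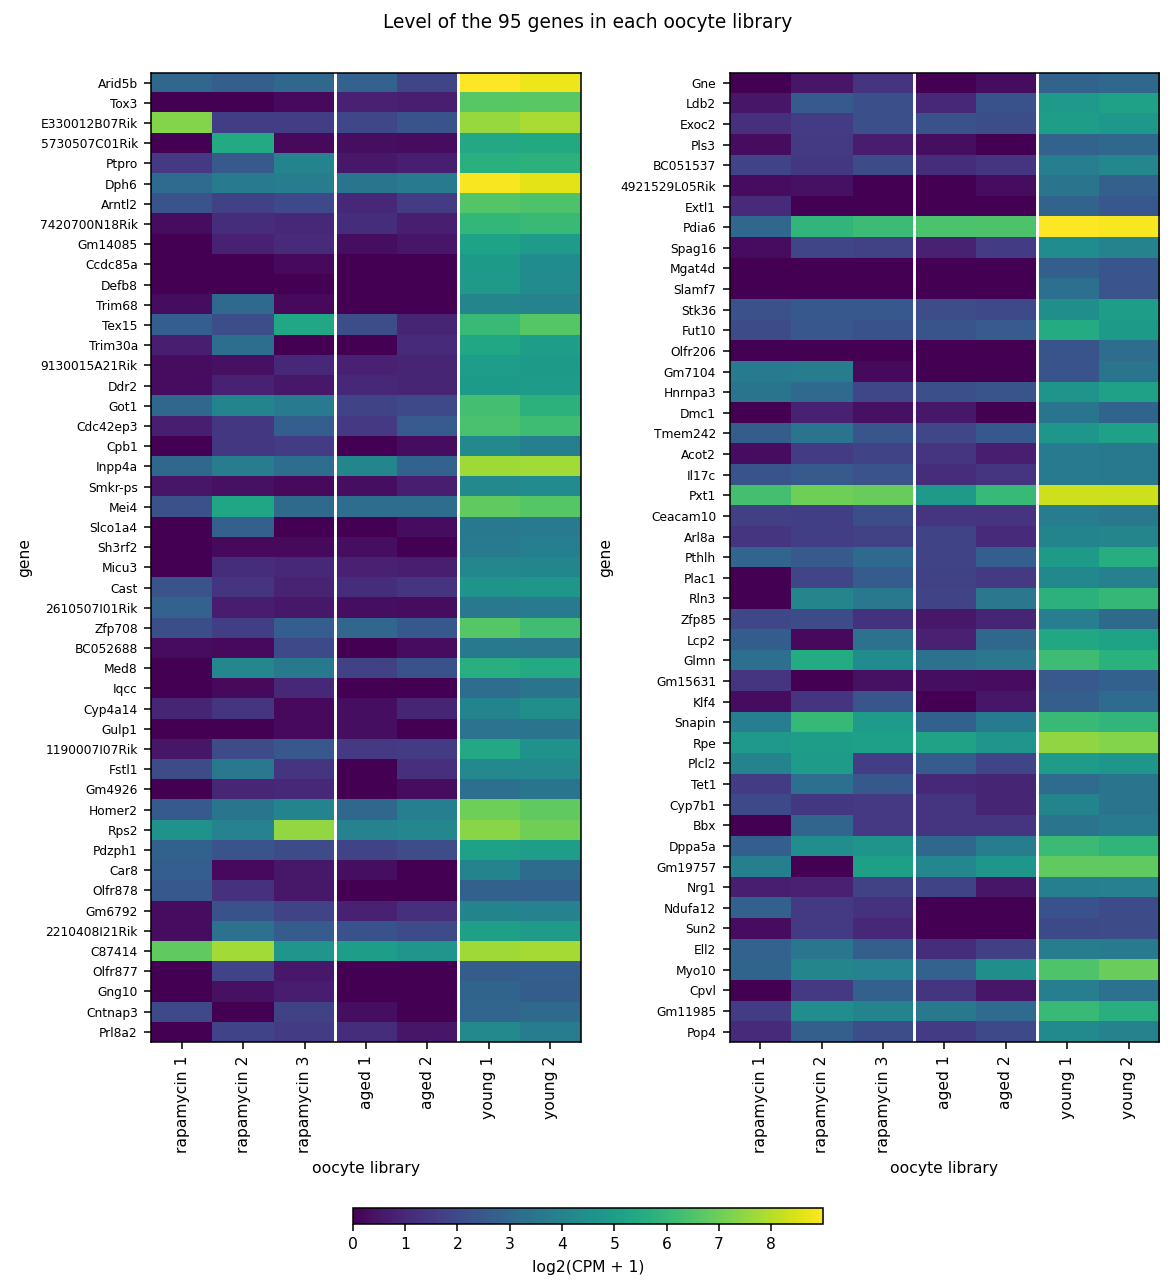
Level of each of the 95 genes, as log2(CPM + 1), in the 3 rapamycin, 2 aged and 2 young oocyte libraries, with genes ordered by the fold that selected them. The young columns are high and the aged columns low because of the selection. The rapamycin columns, which played no role in it, are mostly as dark as the aged ones, with single bright cells such as E330012B07Rik in rapamycin 1, 5730507C01Rik in rapamycin 2 and Rps2 in rapamycin 3.

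Among the most depleted transcripts were those of the nuclear proteins Arid5b and Tox3 and of the translation-related enzyme Dph6. The mean of the 95 in young oocytes ran from 3.11 to 491 CPM with a median of 18.5, and the selecting ratio had a median of 6.02 and a maximum of 60.4. It was at least 10 in 24 genes, at least 20 in 11 and under 6 in 47. The libraries young 1 and young 2 differed by a median of 1.19-fold over the 95. In the aged libraries 14 of the genes had no count at all and 17 had between 1 and 3 counts in the pair. Others stayed well above the floor: Pdia6, a disulfide isomerase of the endoplasmic reticulum, was at 6.84, 58.8 and 71.5 CPM in rapamycin, 86.1 and 87.4 CPM in aged and 508 and 474 CPM in young oocytes. Defb8, Mgat4d, Slamf7 and Olfr206 had no count in any aged or rapamycin library. For these 4 the level was at least 126-fold, 26.6-fold, 32.3-fold and 38.0-fold lower in rapamycin than in young oocytes, taking a floor of 3 counts over the group. Together the 95 genes summed to 645, 1022 and 868 CPM in rapamycin 1, 2 and 3, to 393 and 471 CPM in aged and to 5378 and 5059 CPM in young libraries.

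At the threshold of 4 the genes just inside were Ell2 with a ratio of 4.09, Myo10 with 4.08, Cpvl with 4.04, Gm11985 with 4.03 and Pop4 with 4.02. Just outside lay Slc7a8 with 3.91, Gm904, Adgrv1 and Disc1 with 3.89 each, and Adgrg6 with 3.88. Genes on the 2 sides of the threshold therefore had much the same ratio.

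Arid5b, a DNA-binding partner of a histone demethylase, was at 6.84, 5.52 and 7.07 CPM in rapamycin oocytes, at 6.13 and 2.72 CPM in aged oocytes and at 499 and 430 CPM in young oocytes. Every rapamycin library lay within 1 CPM of the higher aged library or below it. Tox3, a nuclear protein with an HMG box, had 1 read over the 3 rapamycin libraries (0, 0 and 0.164 CPM), against 0.767 and 0.68 CPM in aged and 99.9 and 103 CPM in young oocytes. Rapamycin oocytes were thus 1717-fold lower than young ones, with a counting interval of 308 to 67882. Arntl2, a paralogue of the clock factor Bmal1, was at 3.87, 2.36 and 2.96 CPM in rapamycin, 1.02 and 2.04 CPM in aged and 94.6 and 88.2 CPM in young oocytes. All rapamycin values of Arntl2 lay above both aged values and far below both young values.

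Dph6, the enzyme that completes the diphthamide residue of elongation factor 2, was at 7.75, 11.8 and 12.7 CPM in rapamycin, 10.2 and 12.0 CPM in aged and 476 and 392 CPM in young oocytes. The rapamycin and aged libraries of Dph6 overlapped. Got1, the cytosolic aspartate aminotransferase, was at 7.06, 15.6 and 12.5 CPM in rapamycin, 2.56 and 2.95 CPM in aged and 78.0 and 54.2 CPM in young oocytes. Here all 3 rapamycin libraries lay between the other 2 groups. Defb8, a beta-defensin gene of host defence, was at 0 in all rapamycin and aged libraries and at 28.1 and 19.3 CPM in young ones.

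The starts of these genes differed in CpG content. Windows of 300 bases, 250 before and 50 after the start of transcription, were taken from RefSeq on GRCm38.p6 and are printed 5′ to 3′ on the strand of the gene, with each CpG in capitals. They show 4 of the most depleted genes, with Got1 for comparison.
Tox3, chr8:90348203-90348502, minus strand: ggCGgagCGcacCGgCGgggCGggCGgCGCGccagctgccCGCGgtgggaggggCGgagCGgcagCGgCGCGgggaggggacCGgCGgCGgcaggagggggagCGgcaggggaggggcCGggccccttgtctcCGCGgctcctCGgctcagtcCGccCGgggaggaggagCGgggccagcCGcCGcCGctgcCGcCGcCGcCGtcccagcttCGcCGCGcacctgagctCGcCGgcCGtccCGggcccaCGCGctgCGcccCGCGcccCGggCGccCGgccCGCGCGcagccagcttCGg
Arid5b, chr10:68278677-68278976, minus strand: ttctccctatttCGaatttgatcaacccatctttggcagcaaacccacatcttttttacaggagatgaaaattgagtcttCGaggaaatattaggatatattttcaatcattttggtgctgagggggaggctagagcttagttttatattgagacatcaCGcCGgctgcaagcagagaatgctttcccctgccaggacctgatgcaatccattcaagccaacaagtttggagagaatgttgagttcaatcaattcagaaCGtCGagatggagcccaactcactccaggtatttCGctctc
Dph6, chr2:114654915-114655214, minus strand: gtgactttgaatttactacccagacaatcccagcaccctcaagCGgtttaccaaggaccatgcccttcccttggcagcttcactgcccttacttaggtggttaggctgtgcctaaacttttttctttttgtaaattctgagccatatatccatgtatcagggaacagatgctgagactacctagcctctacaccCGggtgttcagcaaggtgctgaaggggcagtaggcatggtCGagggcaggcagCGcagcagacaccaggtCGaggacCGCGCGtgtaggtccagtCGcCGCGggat
Defb8, chr8:19447557-19447856, minus strand: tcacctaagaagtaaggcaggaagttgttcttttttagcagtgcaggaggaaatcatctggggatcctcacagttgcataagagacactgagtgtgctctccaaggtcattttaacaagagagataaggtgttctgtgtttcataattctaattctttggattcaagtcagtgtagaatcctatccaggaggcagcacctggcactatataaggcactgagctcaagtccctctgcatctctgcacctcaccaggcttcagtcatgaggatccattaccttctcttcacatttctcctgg
Got1, chr19:43524556-43524855, minus strand: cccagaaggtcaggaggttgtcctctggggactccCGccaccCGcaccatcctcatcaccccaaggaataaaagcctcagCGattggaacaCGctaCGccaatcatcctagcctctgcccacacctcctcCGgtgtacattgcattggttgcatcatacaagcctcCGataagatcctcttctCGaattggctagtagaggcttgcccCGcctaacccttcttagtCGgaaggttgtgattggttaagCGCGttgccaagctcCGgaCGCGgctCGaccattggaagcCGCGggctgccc
The window of Tox3 held 52 CpG and that of Got1 18, while Dph6 had 11, Arid5b 7 and Defb8 none. The observed number of CpG over the number that base composition gives was 0.957 for Tox3, 0.75 for Got1, 0.509 for Dph6 and 0.497 for Arid5b.

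Windows were found for 70 of the 95 genes, 87 windows in all, since some genes have several annotated starts. A RefSeq start can lie inside the gene as GENCODE draws it, as that of Arntl2 does. Their median CpG ratio was 0.506, against 0.775 over 8217 windows of the genes with at least 3 CPM in both young libraries. A ratio of at least 0.6 was reached by 36 of the 87 (41.4%) and by 71.1% of the background windows. Among background genes at or below 18.5 CPM in young oocytes, the median level of the 95, it was 66.0% of 3143 windows. The windows found for the depleted genes were thus poorer in CpG than those of other genes in young oocytes. They were also poorer than those of the low-level background genes, although the members' windows were not limited to low levels. Genes with several windows counted more than once. Long non-coding RNA genes, 10.8% of the matched members against 1.89% of the background, were not set apart. The TATA box motif TATAAA was present, on either strand, in 13 of the 87 windows (14.9%) and 7.11% of the background windows. The GC box GGGCGG was present in 42.5% of the members' windows and 61.9% of the background, and the CCAAT box, letters CCAAT, in 33.3% of the members' windows and 38.8% of the background. The clock E-box CACGTG was present in 8.05% of the members' windows against 9.93%, and the cAMP response element TGACGTCA in 4.6% of the members' windows against 3.3%. Every CACGTG is also a CANNTG, which 71.3% of the members' windows and 63.7% of the background windows held. TAATTA, a core of homeodomain sites, was in 3.45% of the members' windows against 3.04%, and TAATTG in 10.3% against 5.56%. The median GC content was 55.3% in the members' windows and 60.7% in the background windows, and the motif shares were not adjusted for it. A match is a string of letters in a window and not a bound site.

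The elements searched for at the ends of the transcripts were about as frequent as in other genes. Stored oocyte messages are known to gain long tails through a cytoplasmic polyadenylation element, here TTTTAT or TTTTAAT, placed near the polyadenylation signal AATAAA or ATTAAA. In the last 100 bases of 75 coding transcripts with a 3′ untranslated region of at least that length, 18 (24.0%) held the element, against 1701 of 7410 background transcripts. The signal was present in 82.7% of the members' transcripts and 83.5% of the background, and both together in 22.7% of the members' transcripts and 19.8% of the background. Windows of 30 bases from GENCODE transcripts on GRCm38 are shown for 4 members that had both, with the elements in capitals.
Tet1, chr10:62804577-62804606, minus strand: gggtggtataaAATAAATTTTATacttcta
Klf4, chr4:55527143-55527172, minus strand: tttaAATAAAcctataataTTTTATctgaa
Got1, chr19:43499769-43499798, minus strand: gttctgTTTTATttaaaaAATAAAactgct
Pxt1, chr17:28933985-28934014, minus strand: aaaagtgaAATAAAtaTTTTATtgagcaca
These 4 are examples, and each had a rapamycin level between the aged and the young levels in at least 1 library. So did members with both that are not shown, such as Gm14085. A link between the elements and the rapamycin levels was not tested. The share with the element was near that of the background.

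Annotation matched 93 of the 95 to a single GENCODE gene. Protein-coding genes made up 88.2% of them, against 97.6% of the background, and long non-coding RNA genes 10.8% (10 genes), against 1.89%. Transcripts were a little shorter, with a median of 2436 against 3145 bases and 7 against 10 exons. Coding parts had a median of 1389 against 1458 bases, and 3′ untranslated regions one of 990 against 1084 bases. Median GC content was 46.6% and 48.6%. Chromosomes 6 and 8 carried 10 of the genes each (10.8%), against 5.34% and 5.44% of background genes, and chromosome 14 carried none, against 3.41%. Within 500 kb of another of the 95 lay 14 genes, a number for which no background was computed. Arntl2, the non-coding RNA E330012B07Rik and Pthlh, a parathyroid hormone-related peptide, sit on chromosome 6 between 146796055 and 147264183. Fut10, a fucosyltransferase, the non-coding RNA 7420700N18Rik and Nrg1, a ligand of ErbB receptors, sit on chromosome 8 between 31187331 and 32884029. The olfactory receptor genes Olfr877 and Olfr878 lie side by side on chromosome 9 from 37854269 to 37922474, and Dmc1 and Sun2 lie on chromosome 15 between 79561497 and 79742536.

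Some counts could not be assigned to one gene with certainty. Exons of 22 of the 95 overlapped a gene on the opposite strand, and the strand setting of the counting is not given in the sources used here. Of the 75-base words in their transcripts, under 90% were unique in 17 genes and under 50% in 2. These 2 were Zfp708 (5.69% unique), whose exons overlap those of Gm28557 and Rslcan18, and Gng10 (29.1%). The words were all unique in 54 genes, Arid5b, Tox3, Dph6, Arntl2 and Got1 among them. Rps2 (64.0%) has processed pseudogenes, and C87414 (53.4%) belongs to a family of similar copies.

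The 95 genes were spread over many functional classes, defined by symbol and not by how the genes moved. Of 572 genes for transcription factors and chromatin proteins with at least 3 CPM in both young libraries, 8 were among them (1.4%), close to the 1.16% over all genes. They were Arid5b, Tox3, Arntl2, the Mediator subunit Med8, the Krüppel-type zinc finger genes Zfp708 and Zfp85, the pluripotency factor Klf4 and Tet1, an enzyme that oxidizes 5-methylcytosine. Genes for RNA processing and translation contributed 2 of 475 (0.421%), namely Dph6 and the RNA-binding protein gene Hnrnpa3. Cytosolic ribosomal proteins gave 1 of 61, Rps2, and respiratory chain subunits 1 of 62, Ndufa12 of complex I. No gene of the oocyte identity list, of 26 at that level, was among them.

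Several classes had higher shares. Metabolic enzymes gave 8 of 255 (3.14%). These were Got1, the thioesterase Acot2, the cytochromes P450 Cyp4a14 and Cyp7b1, and the glycosyltransferases Extl1 and Fut10. The others were Mgat4d, of a glycosyltransferase family, and the carbonic anhydrase-related Car8. The class took genes by symbol, and enzyme activity was not checked. Growth factors, cytokines and their receptors gave 4 of 112 (3.57%), which were the collagen receptor kinase Ddr2, the secreted glycoprotein Fstl1, the cytokine Il17c and Nrg1. Receptors coupled to G proteins and their regulators gave 4 of 77 (5.19%), which were Olfr206, Olfr877, Olfr878 and the G protein subunit Gng10. Germ cell and placenta families gave 3 of 66 (4.55%), which were the placental prolactin relative Prl8a2, Ceacam10 and E330012B07Rik. The last is a non-coding RNA that its symbol placed there wrongly. Genes known only by a clone or prediction symbol gave 18 of 430 (4.19%). The other classes with members gave 0.457% to 1.33%, ion channels outside the Kcn symbols and mitochondrial ribosomal proteins gave none, and 32 of the 95 fell in no class.

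**Figure D2:**
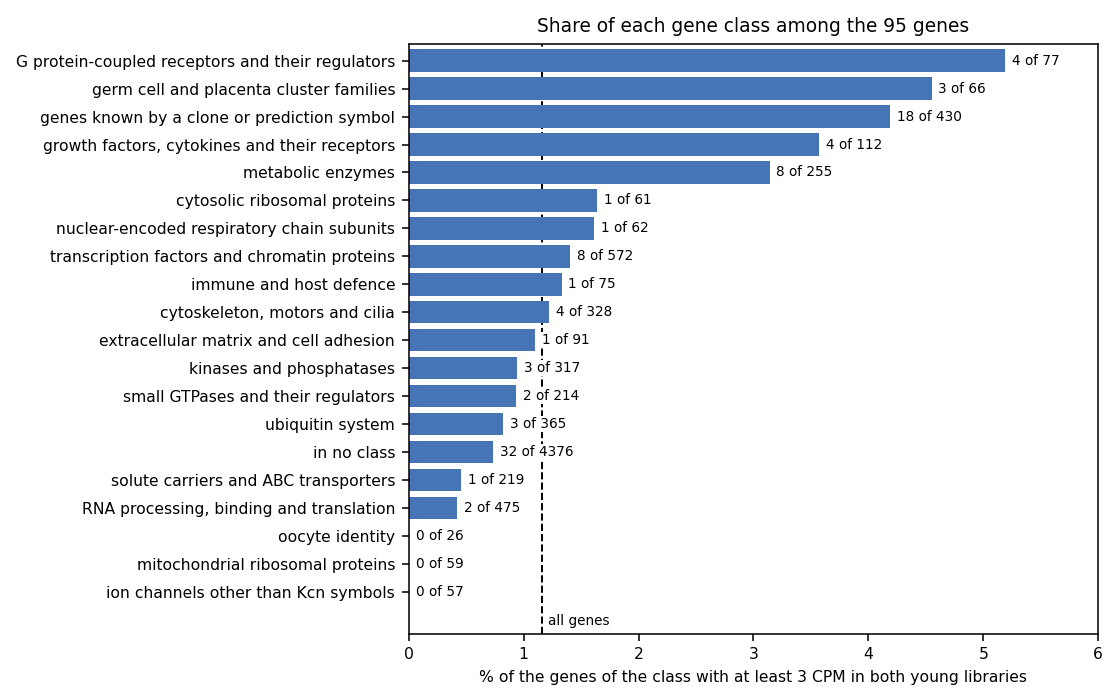
Share of each gene class that was among the 95 genes, in percent of the genes of the class with at least 3 CPM in both young libraries. Labels give the counts and the dashed line the share over all genes, 1.16%. The longest bar, for receptors coupled to G proteins, rests on 4 of 77 genes, so that 1 gene moves it by more than the share over all genes.

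Genes outside the symbol classes included several known from meiosis and early germ cells, named here after their values were seen. Dmc1, the meiotic strand-exchange recombinase, was at 0, 0.788 and 0.329 CPM in rapamycin, 0.511 and 0 CPM in aged and 10.2 and 6.48 CPM in young oocytes. Mei4, needed for meiotic DNA breaks, was at 3.65, 38.9 and 7.56 CPM in rapamycin, 8.18 and 8.38 CPM in aged and 111 and 97.1 CPM in young oocytes. Tex15, a germ cell protein of recombination and transposon silencing in male mice, was at 5.47, 3.47 and 40.8 CPM in rapamycin, 3.32 and 0.906 CPM in aged and 67.6 and 97.1 CPM in young oocytes. Dmc1 stayed low in all rapamycin libraries, while Mei4 was above both aged libraries in rapamycin 2. Tex15 was above both aged libraries in all 3 rapamycin libraries, and highest in rapamycin 3. Dppa5a, an RNA-binding protein of pluripotent cells, was at 5.47, 20.3 and 24.2 CPM in rapamycin, 7.16 and 13.1 CPM in aged and 69.6 and 57.8 CPM in young oocytes. Its levels in rapamycin 2 and 3 were above both aged libraries and its level in rapamycin 1 was below them.

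The next question was where the same genes stood in oocytes of aged females given rapamycin, whose libraries had no part in the selection. In 87 of the 95 genes all 3 rapamycin libraries lay below both young libraries, against 19.6% of the 8168 background genes. Without rapamycin 1 it was 88, against 24.9%. In 39 genes the rapamycin libraries also met the 4-fold rule that selected the aged ones, against 0.649% of the background, and in 44 against 0.857% without rapamycin 1. The rule was met by 74 genes with rapamycin 1 alone, by 58 with rapamycin 2 alone and by 63 with rapamycin 3 alone. Since the young levels of these genes had been selected as high, any further group tends to lie below them, and the shares are no measure of an effect of rapamycin.

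The same holds for a fit: edgeR's quasi-likelihood F-test of rapamycin against young oocytes ran across all genes, but the same 2 young libraries had selected the 95, so its calls among them restate the selection in part and support nothing. Lower in rapamycin at an adjusted p under 0.05 were 20 of the 95, against 0.218% of the 10083 genes tested. Without rapamycin 1 this was 63, against 1.53%. With other libraries left out the count was 6 (rapamycin 2), 4 (rapamycin 3), 10 (either aged library), 0 (young 1) and 2 (young 2). The median log2 difference between rapamycin and young oocytes over the 95 was -2.82, with 94 below 0, and -2.81 without rapamycin 1. The median over all genes tested was 0.02 in both.

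The sizes of these differences are given as a description. Dph6 was lower by a log2 difference of -5.31 ± 0.36 (SE), or -5.2 ± 0.28 without rapamycin 1. Arid5b was lower by -6.11 ± 0.48, or -6.26 ± 0.38 without rapamycin 1, and Arntl2 by -4.83 ± 0.48, or -5.15 ± 0.39 without it. Ddr2 was lower by -5.74 ± 0.54, or -5.51 ± 0.48 without rapamycin 1. Inpp4a, a phosphatase of membrane phosphoinositides, was lower by -4.42 ± 0.51, or -4.34 ± 0.45 without it. In CPM, Ddr2 was at 0.228, 0.788 and 0.493 in rapamycin, 1.02 and 0.906 in aged and 28.8 and 29.8 in young oocytes. Inpp4a was at 7.29, 12.8 and 8.55 CPM in rapamycin, 16.4 and 6.12 CPM in aged and 206 and 213 CPM in young oocytes. For Inpp4a all 3 rapamycin libraries lay within the range of the aged ones. For Ddr2 they lay below both aged libraries, with 1, 5 and 3 reads against 4 and 4, so these levels carry wide counting error. Beside these 5, the 20 held Tox3, the clone-named genes 7420700N18Rik, 9130015A21Rik and Gm14085, the pseudogene-named non-coding RNA Smkr-ps, Ccdc85a, Defb8, Zfp708, the ubiquitin ligase Sh3rf2, and Cdc42ep3, an effector of the GTPase CDC42. The other 5 were the engulfment adaptor Gulp1, the synaptic scaffold Homer2, Exoc2 of the exocyst, Fut10, and Rpe of the pentose phosphate pathway.

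**Figure D3:**
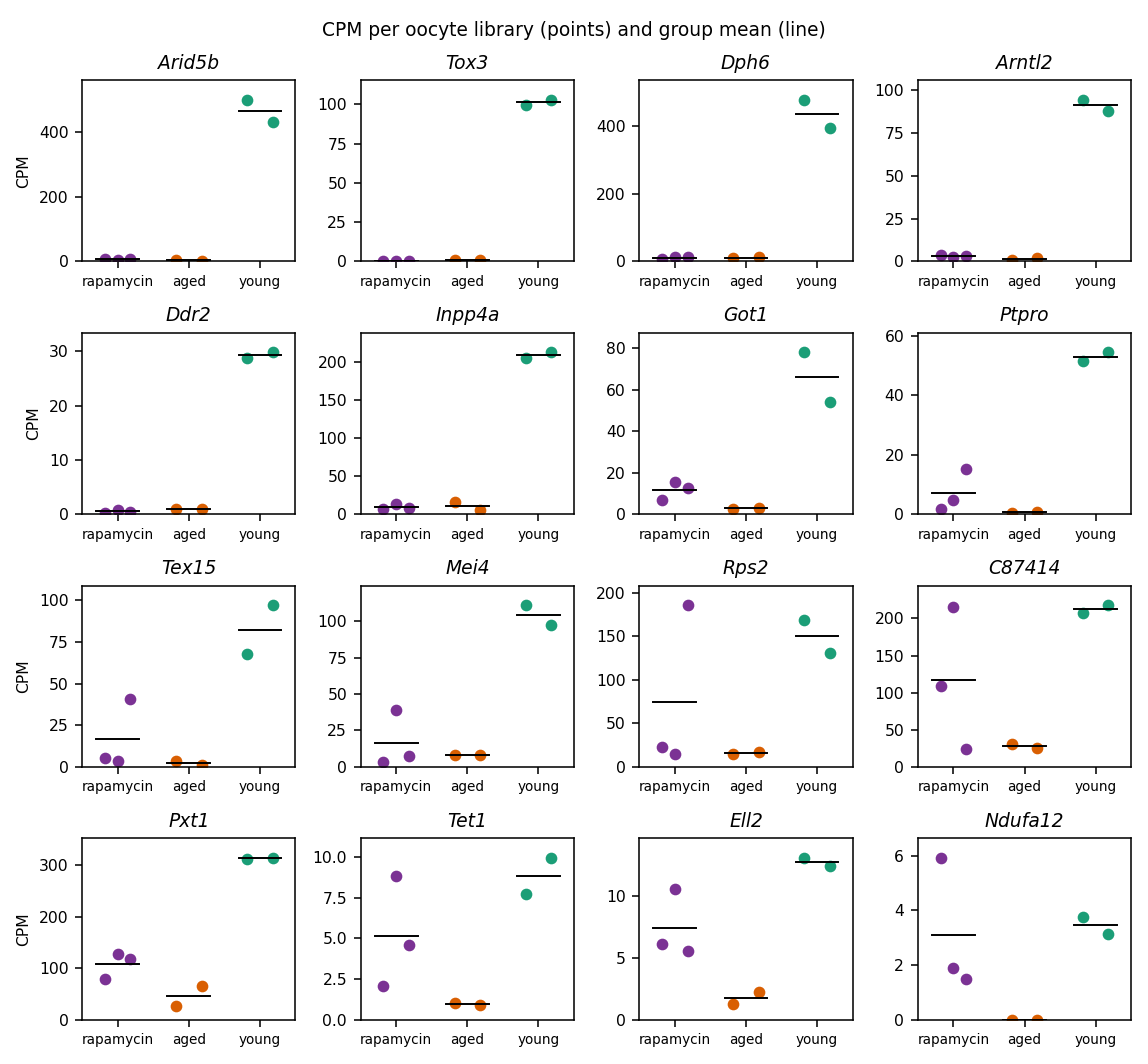
CPM of 16 of the 95 genes in each oocyte library (points) with the mean of the group (line), for rapamycin, aged and young oocytes, each on its own linear axis from 0. In the upper 2 rows the rapamycin points lie near the aged points, with Got1 and Ptpro above them. In the lower 2 rows 1 or more rapamycin points reach towards the young points, and which library does so differs from gene to gene.

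Against aged oocytes, whose levels had been selected as low, edgeR called none of the 95 higher in rapamycin, and 0% of all genes. DESeq2 also called none, against 0.0622%, and edgeR none without rapamycin 1, against 0.0294%. At an unadjusted p under 0.05 edgeR had 16 of the 95 higher, against 3.28% of all genes, and 32 without rapamycin 1, against 7.51%. All rapamycin libraries lay above both aged libraries in 21 genes, against 12.0% of the background, and rapamycin 2 and 3 did so in 46, against 30.3%. The median log2 difference between rapamycin and aged oocytes was 0.77 over the 95 and 0.01 over all genes tested, and without rapamycin 1 it was 0.86 over the 95 and 0.02 over all genes. As the aged levels had been selected as low, nothing is read from these shares and medians.

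The place of each gene between the 2 reference ages was then expressed on a scale from 0, the aged mean, to 1, the young mean, of log2(CPM + 1). The median position of the 95 was 0 in rapamycin 1, 0.14 in rapamycin 2 and 0.15 in rapamycin 3, and the quartiles were -0.17 and 0.22 in rapamycin 1, 0.01 and 0.45 in rapamycin 2 and 0 and 0.31 in rapamycin 3. Nearer to the young than to the aged mean, with a position above 0.5, were 10 genes in rapamycin 1, 21 in rapamycin 2 and 12 in rapamycin 3. None of the 3 libraries put 63 of the genes nearer to the young mean, 1 library did so for 23 genes, 2 libraries for 7 and all 3 for Ndufa12 and Ell2. The 69 genes gained in aged oocytes by the same rule turned round had median positions of 0.26, 0.14 and 0.12 in the same libraries. Both ends of the scale had been selected as extremes, so a further group tends to lie between them. The positions are therefore no measure of an effect of rapamycin.

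**Figure D4:**
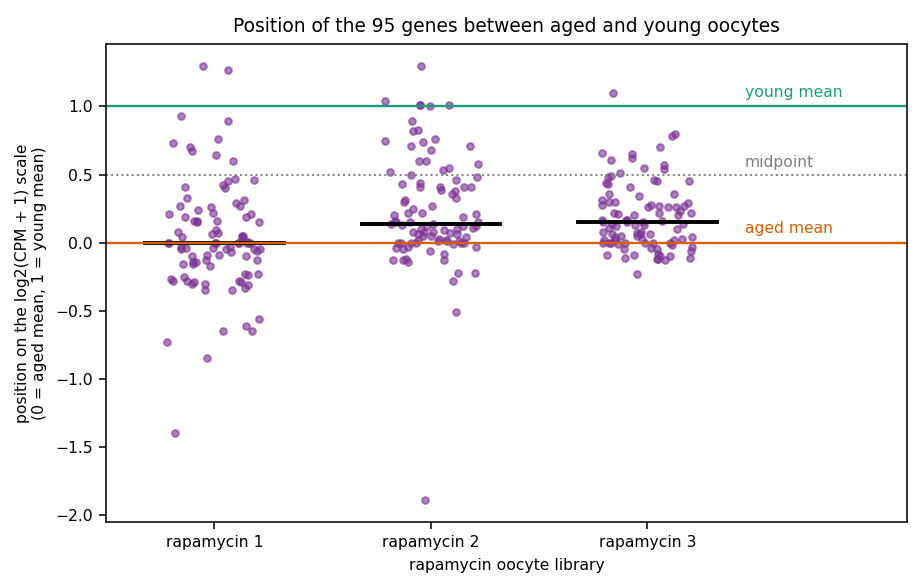
Position of each of the 95 genes (points) in the 3 rapamycin oocyte libraries on the log2(CPM + 1) scale, where 0 is the mean of aged and 1 the mean of young oocytes. Black bars are medians, at 0, 0.14 and 0.15. Most points lie near the aged mean, and 10, 21 and 12 points lie above the midpoint in rapamycin 1, 2 and 3. Both ends of the scale come from libraries used in the selection, so positions are no measure of an effect of rapamycin.

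Ell2, a transcription elongation factor, was at 6.15, 10.6 and 5.59 CPM in rapamycin, 1.28 and 2.27 CPM in aged and 13.1 and 12.4 CPM in young oocytes. Ndufa12 was at 5.92, 1.89 and 1.48 CPM in rapamycin, at 0 in both aged and at 3.77 and 3.12 CPM in young oocytes. In these genes the rapamycin libraries lay above the aged ones throughout, and rapamycin 1 was above both young libraries for Ndufa12. Aged levels had been selected as low, and the young levels of Ndufa12 were near 3 CPM, the lowest that can meet the rule. Positions above 0.5 in both rapamycin 2 and 3 but not in rapamycin 1 were seen for Pxt1, Snapin and Tet1. Pxt1, a testis-expressed gene in mice, was at 79.3, 127 and 118 CPM in rapamycin, 27.1 and 65.5 CPM in aged and 312 and 314 CPM in young oocytes. Tet1 was at 2.05, 8.83 and 4.6 CPM in rapamycin, 1.02 and 0.906 CPM in aged and 7.76 and 9.96 CPM in young oocytes. Snapin, a SNARE-binding protein, was at 13.4, 64.2 and 30.1 CPM in rapamycin, 5.88 and 12.5 CPM in aged and 67.6 and 59.0 CPM in young oocytes. No overlap with the aged libraries was seen for any of the 3. These genes were named for this pattern, which is given without a test.

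In some of the 95 genes single rapamycin libraries also parted from each other. Rapamycin 2 and 3, which resembled each other over all genes, differed by 4-fold or more on the CPM + 1 scale in 13 of the 95 (13.7%), against 1.08% of background genes. Among genes under 10 CPM in these libraries it was 6 of 74 (8.11%), against 2.32%. Rapamycin 2 was the higher one in 9 of the 13. The aged and young libraries of the 95 cannot be compared in this way, because the selection asked that both libraries of a group lie on the same side. A rule that asks for large differences between few small pools tends to pick genes that vary from pool to pool. The shares are therefore a description and are not read as a trait of these genes.

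5730507C01Rik, a coding gene named by its clone, was at 44.5 CPM in rapamycin 2 and at 0 and 0.164 CPM in rapamycin 1 and 3. It was at 0.256 and 0.227 CPM in aged oocytes and at 42.5 and 42.7 CPM in young oocytes, so that rapamycin 2 had the young level and the other 2 had the aged level. E330012B07Rik, a long intergenic RNA, was at 161, 2.21 and 2.14 CPM in rapamycin, 2.81 and 4.08 CPM in aged and 192 and 231 CPM in young oocytes. There it was rapamycin 1 that stood near the young level. Rps2, a protein of the small ribosomal subunit, was at 22.8, 14.7 and 186 CPM in rapamycin, 14.8 and 17.0 CPM in aged and 169 and 131 CPM in young oocytes. Rapamycin 3 alone exceeded both young libraries. C87414 was at 109, 216 and 24.5 CPM in rapamycin, 31.2 and 24.9 CPM in aged and 207 and 218 CPM in young oocytes, and Gm19757 was at 13.9, 0 and 33.9 CPM in rapamycin, 16.9 and 25.6 CPM in aged and 111 and 109 CPM in young oocytes. The ubiquitin ligases Trim68 and Trim30a were at 7.41 and 8.51 CPM in rapamycin 2 and at most 0.684 CPM in rapamycin 1 and 3. The library nearest to the young level differed from gene to gene. Some values lay between the age groups, such as C87414 in rapamycin 1 (position 0.67) and Trim30a in rapamycin 2 (position 0.58), and Gm19757 in rapamycin 2 lay below both.

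For comparison with the sentences above, aged and young oocytes were also compared in the same fit, although the selection used these libraries and the counts show nothing beyond it. edgeR called 10 of the 95 lower in aged oocytes, against 0.109% of all genes. Without rapamycin 1, which shares the estimate of spread, it called 91, against 5.16%.

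The hippocampus of daughters offered a tissue that had no part in the selection. Of the 95 genes, 60 (63.2%) reached a mean of 1 CPM there, against 88.5% of the 8168 background genes, and 35 reached 10 CPM. No read was found for 16 genes in any of the 10 hippocampus libraries, Defb8, Dppa5a, C87414 and the 3 olfactory receptor genes among them. The mean CPM was higher in hippocampus than in young oocytes for 24 genes. The highest hippocampus means were those of Rps2, Got1, the actin-bundling protein gene Pls3, the lysosomal GTPase gene Arl8a and Inpp4a.

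**Figure D5:**
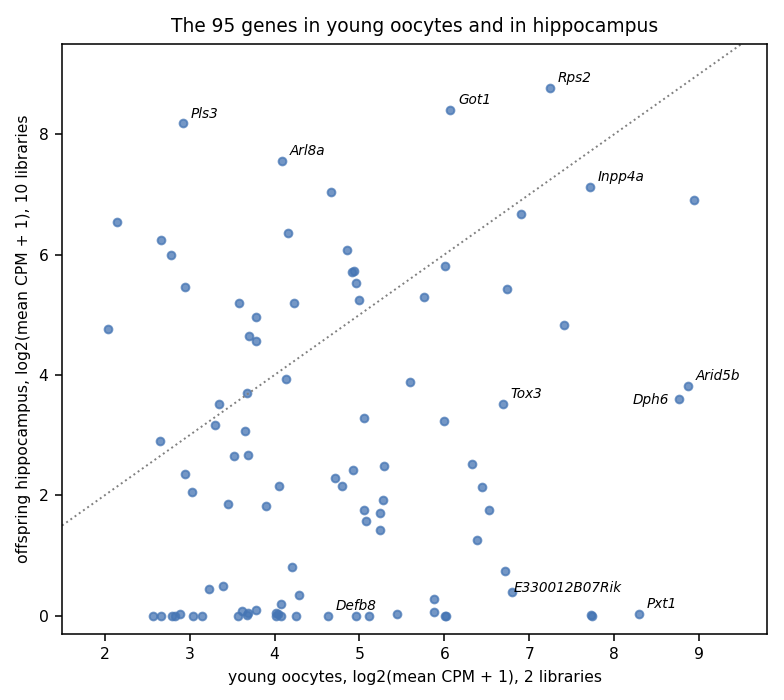
Mean level of each of the 95 genes as log2(mean CPM + 1) in young oocytes (2 libraries, horizontal axis) and in the hippocampus of daughters (10 libraries, vertical axis). The dotted line marks equal values, and 24 points lie above it. Arid5b, Dph6 and Tox3 are low in hippocampus relative to young oocytes, Got1 and Pls3 are high, and Defb8 and Pxt1 lie at the bottom.

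Daughters of the 3 kinds of mother were then compared. Of the 64 that could be tested, edgeR called none between daughters of rapamycin-treated and aged mothers (0% of all 14877 genes), none between daughters of aged and young mothers (0.0471%) and none between daughters of rapamycin-treated and young mothers (0.0538%). At an unadjusted edgeR p under 0.05 the counts were 7, 5 and 7 of the 64 (10.9%, 7.81% and 10.9%). Over all genes the shares were 4.52%, 3.51% and 3.63%. DESeq2 called 1 of 60, 0 of 68 and 0 of 69 members, against 0.0786%, 0.308% and 0.182% of all genes. Median log2 differences over the 64 were -0.05, 0.02 and -0.04 in edgeR.

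Levels follow for the members with the highest hippocampus means. Got1 averaged 323 ± 20.5 CPM in daughters of rapamycin-treated mothers (SD, n = 3), 339 ± 31.7 CPM in those of aged mothers (SD, n = 3) and 347 ± 22.2 CPM in those of young mothers (SD, n = 4). Arl8a averaged 186 ± 21.0 CPM in daughters of rapamycin-treated mothers, 192 ± 16.5 CPM in daughters of aged mothers and 186 ± 19.1 CPM in daughters of young mothers. Pls3 averaged 274 ± 53.4 CPM in daughters of rapamycin-treated mothers, 298 ± 78.5 CPM in daughters of aged mothers and 294 ± 6.03 CPM in daughters of young mothers. In all 3 genes the groups overlapped. Rps2 averaged 386 ± 190 CPM in daughters of rapamycin-treated mothers, 524 ± 80.7 CPM in daughters of aged mothers and 410 ± 99.2 CPM in daughters of young mothers. Inpp4a averaged 152 ± 25.0 CPM in daughters of rapamycin-treated mothers, 124 ± 8.55 CPM in daughters of aged mothers and 139 ± 30.3 CPM in daughters of young mothers. These errors are SDs over the same numbers of libraries. None of these differences passed in edgeR.

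The gene that DESeq2 called, 2610507I01Rik, had 2 levels in the hippocampus. It is annotated on chromosome 11 from 59199836 to 59202385 of GRCm38 as a processed transcript, with no shared 75-base words. Daughters of rapamycin-treated mothers had 0.834, 1.06 and 1.07 CPM, daughters of aged mothers 19.6, 11.7 and 11.4 CPM, and daughters of young mothers 11.9, 14.0, 1.39 and 1.18 CPM. The first group was low throughout, the second high throughout, and the third held 2 high and 2 low libraries. The log2 difference between daughters of rapamycin-treated and aged mothers was -3.83 ± 0.91, with an adjusted p of 0.796 in edgeR with all groups, 0.015 in edgeR with these 2 groups only and 0.0497 in DESeq2. In oocytes the same gene was at 6.15, 0.631 and 0.493 CPM in rapamycin, 0.256 and 0.227 CPM in aged and 11.1 and 12.1 CPM in young libraries, so that all 3 rapamycin libraries lay between the other groups, rapamycin 1 highest. Of the 60 members at 1 CPM or more in hippocampus, the libraries spanned 4-fold or more on the CPM + 1 scale in 2 (3.33%), against 1.63% of background genes. These were 2610507I01Rik and Slco1a4, an anion transporter of brain capillaries, which ran from 6.51 to 53.3 CPM.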

How the data were processed

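Counts of reads per gene, 1 file per library, were used as the authors deposited them, without normalization. Per the submitters' processing notes, reads were handled with STAR and HTSeq on mm10; no version or strand setting is given there. The 5 summary rows that name no gene were left out: reads outside genes were 6.09% to 9.32% of oocyte and 11.6% to 16.0% of hippocampus libraries. No duplicated library was found (chi-square per degree of freedom at least 12.3 in each pair of replicates).

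The members, gene classes and lists were chosen with earlier results of these data known. CPM are counts over the sum of gene rows. Each tissue was fitted with its 3 groups in edgeR 4.0.16 (filterByExpr, TMM, quasi-likelihood F-test), with p adjusted by Benjamini and Hochberg's method across every gene tested, at 0.05. DESeq2 1.42.0 was an alternative. Other tools were R 4.3.3, Python 3.11.15 and matplotlib 3.10.9. The code was tested on simulated data. A floor of 3 counts equals 0.36 to 0.767 CPM in oocyte libraries. Floors and 95% exact intervals cover counting error only, since reads are not independent molecules. The classes take genes by symbol and can place a gene wrongly, such as E330012B07Rik among germ cell families and Ccdc85a among cytoskeleton genes.

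Genes were named by a rule: the largest selecting ratios, the highest young levels, the calls of smallest p, up to 3 of each class, the highest and lowest positions, those nearest the threshold and the 5 highest in hippocampus. Any other gene was named with its values already seen. Promoter windows came from RefSeq (GRCm38.p6) and transcripts from GENCODE M21 (GRCm38, which is mm10). The authors' annotation may differ, and 97.3% of background genes matched 1 GENCODE gene.

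Replicate numbers come from the labels. Same-numbered hippocampus libraries of daughters of rapamycin-treated and young mothers deviated together from their group means (r = 0.317, 0.763 and 0.498). Some differently numbered libraries did so too, such as replicate 1 of the first group with replicate 3 of the second (r = 0.693). The numbers are therefore not shown to pair these samples. In the other comparisons same-numbered libraries did not all deviate together.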

Additional observations from a re-analysis of the deposited data

Results flagged for a closer look

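Inpp4a was at 93.3 CPM in the hippocampus library young 2, while the other 3 libraries from daughters of young mothers were at 155, 155 and 152 CPM. The gap between that library and the nearest of the others was large for the range of a group of 4. Of the 6 members whose hippocampus levels are given in the report, it was the only one flagged, and chance flags about 1 in 20 groups.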

How the results depend on the processing

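Counts of called members depended on the fit. For aged against young oocytes the 10 calls became 69 with DESeq2, 67 without a low-count filter, 95 with the 2 groups alone and 0 with the replicate block. They ranged from 0 to 91 when 1 library was left out. For rapamycin against young oocytes the 20 calls became 49, 47, 9 and 0 under the same 4 changes, and 0 to 63 with 1 library left out. Size factors by relative log expression changed neither count. With the replicate block, 0 members were also called in rapamycin against aged oocytes and in all 3 hippocampus comparisons. Replicate numbers did not pair the oocyte samples, where deviations of same-numbered libraries correlated at -0.119 to 0.019. They did not pair daughters of aged mothers with either other group either (-0.285 to 0.35). Same-numbered libraries of daughters of rapamycin-treated and young mothers deviated together, but so did some of different number, so pairing was not shown. In that comparison the block changed no call. No log2 difference of the 10 members of smallest p between rapamycin and young oocytes changed sign under the 12 alternatives of each.

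In hippocampus, daughters of rapamycin-treated against aged mothers gave 1 call with DESeq2 and 1 with the 2 groups alone, against 0 in the main comparison. All other hippocampus counts stayed at 0. The number of genes meeting the selection rule was 193 at a fold of 3, 33 at a fold of 8, 32 with 5 CPM added, 90 with TMM-normalised CPM, and 143 to 242 with 1 aged or young library left out. Members with all rapamycin libraries above both aged ones numbered 21, and 28 to 46 with 1 rapamycin library left out. Those that met the 4-fold rule with rapamycin in place of aged numbered 39, and 44 to 53 with 1 rapamycin library left out. This last pair of alternatives was chosen after seeing the data. Fewer libraries set fewer conditions to be met, which by construction cannot lower these last 3 counts. With 2 aged and 2 young libraries, members near the floor of 3 counts have levels known only within wide counting error. Where a library is left out of a pair, the lone library is assumed to vary like the other groups.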
